A study of Homo sapiens with 6 samples.

Results

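The 10 genes described here encode parts of the bone morphogenetic protein (BMP) pathway: the ligands BMP2 and BMP4, the receptors BMPR1A, BMPR2 and ACVR1, the signal transducers SMAD1 and SMAD5, and the target genes ID1, ID2 and ID3. They were taken from the count table by gene symbol, 10 of 58735 rows, and all 10 symbols were found once. The genes were chosen on the difference between OTUD1 siRNA and control siRNA in these same 6 libraries, so for the 10 genes that difference is given as a description. The 10 genes were part of the fit across all genes, but its calls are not used as a test of them. The libraries came from ACHN cells, an established human renal cancer line grown in medium with serum. In 3 libraries the cells had received an siRNA against OTUD1, a deubiquitinase of the OTU family, and in 3 a control siRNA. The labels name a single OTUD1 siRNA (si01), give no time after transfection, and leave unsaid whether replicate libraries were made from separate cultures. The p-values for other genes therefore measure only the spread between these libraries, which may be technical.

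BMPs are secreted dimers of the transforming growth factor beta superfamily. They bring together type I receptors (ACVRL1, ACVR1, BMPR1A, BMPR1B) and type II receptors (BMPR2, ACVR2A, ACVR2B), and the type II kinase activates the type I kinase, which phosphorylates SMAD1, SMAD5 and SMAD9. These SMADs bind SMAD4, enter the nucleus and switch on target genes, of which ID1, ID2 and ID3 are the classic early examples. ID proteins carry a helix-loop-helix domain without a DNA-binding region and hold E proteins in dimers that cannot bind DNA. In the kidney, BMP signalling takes part in nephron development and in the epithelial response to injury.

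Total counts ranged from 16753495 to 21013530 per library. OTUD1 itself had 61, 67 and 65 counts in the control libraries and 28, 17 and 25 in the OTUD1 siRNA libraries, a log2 fold change of -1.69 (SE 0.24, edgeR quasi-likelihood adjusted p = 4.37e-07). Of 15244 genes tested, 60.4% were called at an adjusted p under 0.05, 29.3% higher and 31.1% lower after OTUD1 siRNA, with a median log2 fold change of 0.0056. With library totals in place of TMM scaling, 64.2% of the calls were higher, against 48.4% with TMM, and the median log2 fold change of all genes moved to 0.134. Of 9 renal epithelial and renal cancer markers, 8 had counts, LRP2 was at 0 and CA9 had 1 count in all. Their summed level was 7130 to 7350 CPM (counts scaled to library size, with TMM factors) in the control libraries and 3670 to 3760 CPM after OTUD1 siRNA, with 6 of 7 tested markers called lower and 1 higher. The keratin genes KRT8 (4112 ± 101 and 1957 ± 40.9 CPM; SD, n = 3) and KRT18 (1604 ± 26.4 and 726 ± 12.6 CPM) made up most of this difference. The marker called higher was EPCAM (43.3 ± 1.54 and 47.6 ± 1.69 CPM). The leukocyte markers PTPRC, CD3E and HLA-DRA and the endothelial marker KDR had no count in any library. The 7 leukocyte markers summed to 1.54 to 1.75 CPM in the control libraries and 1.24 to 1.94 CPM after OTUD1 siRNA, and the 5 endothelial markers to 0.188 to 0.934 and 0.596 to 0.912 CPM. The 8 fibroblast and smooth muscle markers summed to 294 to 304 and 165 to 178 CPM, of which THY1 made up 280 ± 5.43 and 134 ± 4.36 CPM (SD, n = 3), and the fibroblast collagen gene COL1A2 had 1 count. Of the 4 that could be tested, THY1 was the 1 called lower, ACTA2 (9.6 ± 0.786 and 23.7 ± 1.16 CPM) and PDGFRB (4.56 ± 0.887 and 7.96 ± 0.956 CPM) were called higher, and COL1A1 was not called. The part of these marker differences in the results below was not tested. In bulk RNA, fewer cells that hold an mRNA and less of it per cell cannot be told apart.

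The 3 ID genes and BMPR1A were higher after OTUD1 siRNA, and BMP2, ACVR1 and SMAD5 were lower. ID2 and ID3 differed most among the well-counted genes, with levels 2.16-fold and 2.1-fold those of the control group, while ID1 was 1.33-fold and BMPR1A 1.32-fold higher. BMP2, at a few counts per library, was 8.91-fold lower. SMAD1 was also lower in all 3 OTUD1 siRNA libraries, by less (log2 fold change -0.18), and the groups of BMP4 and BMPR2 overlapped. All 10 genes passed the filter on low counts, BMP2 only through the control libraries, where it is high. In the fit across all genes 4 of the 10 were called higher and 3 lower, beside 29.3% and 31.1% of all genes tested, and 8 of the 10 had groups that did not overlap in CPM, beside 64.5% of all genes tested. Since the 10 genes were picked on this contrast, nothing is read from these counts.

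**Figure D1:**
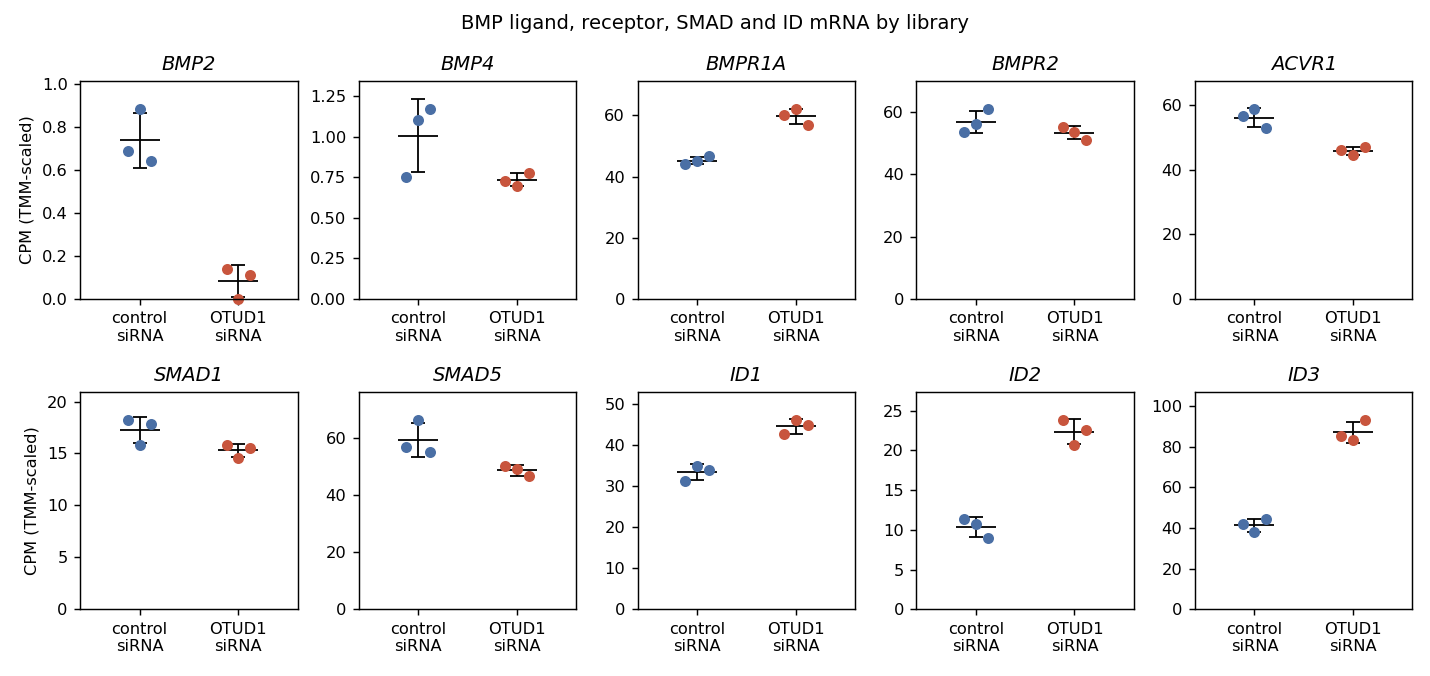
TMM-scaled CPM of each of the 10 genes on a linear axis that starts at 0 in each panel, with 1 point per library, blue for control siRNA and red for OTUD1 siRNA; the horizontal mark is the mean and the bar the SD of 3 libraries. The 3 ID genes and BMPR1A lie higher in all 3 OTUD1 siRNA libraries, BMP2, ACVR1, SMAD1 and SMAD5 lie lower in all 3, and the groups overlap for BMP4 and BMPR2.

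BMP2, a ligand that binds BMPR1A with high affinity (ENSG00000125845.6; hg38 chromosome 20, 6767664 to 6780280, plus strand), had 11, 16 and 11 counts in control replicates 1 to 3 and 3, 0 and 2 counts in OTUD1 siRNA replicates 1 to 3. The control libraries were all above the OTUD1 siRNA libraries, 1 of which had no BMP2 count, where 3 counts would have been 0.149 CPM. From the summed counts, 38 against 5, BMP2 was 8.91-fold lower, with a 95% exact binomial interval of 3.5 to 29 that covers counting error only. BMP4, the close relative of BMP2 (ENSG00000125378.15; chromosome 14, 53949736 to 53958761, minus strand), was at 0.751, 1.1 and 1.17 CPM in the control libraries and 0.729, 0.695 and 0.778 CPM after OTUD1 siRNA. Control replicate 1 lay inside the range of the OTUD1 siRNA libraries, so the groups overlapped. The summed counts, 52 against 44, gave a ratio of control to OTUD1 siRNA of 1.39, with an interval of 0.909 to 2.12 that covers counting error only.

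Other BMP ligands were few in these cells. Of 11 further ligand genes, 8 had any count and 3 (BMP5, BMP10 and GDF2) had none. Only BMP6, BMP8B and GDF7 had enough counts to be tested, and 0 of the 3 were called by edgeR, 0 had an unadjusted p under 0.05, 0 were called by DESeq2 or limma-trend, and 1 was called by limma after quantile normalization. BMP6 had 37 counts in the control group and 25 after OTUD1 siRNA, 1.73-fold lower at equal depth with a counting interval of 1.02 to 3.01, but its libraries overlapped and the fitted log2 fold change was -0.76 (SE 0.5). The log2 fold changes were -0.17 (SE 0.24) for BMP8B and 0.55 (SE 0.36) for GDF7. Of the ligand genes with too few counts to be tested, BMP8A and GDF6 had the most. BMP8A had 19 counts in the control group and 16 after OTUD1 siRNA, and GDF6 had 11 and 31. Levels per kilobase of merged exon scale for gene length, and are given for the ligands that could be tested. Merged exons cover all annotated transcripts of a gene, so orders between genes rest on the lengths used. The control libraries held 0.447 ± 0.0615 CPM per kb of BMP8B, 0.327 ± 0.0727 of BMP4, 0.257 ± 0.0882 of BMP6, 0.205 ± 0.0352 of BMP2 and 0.0836 ± 0.0107 of GDF7 (SD, n = 3). Except for BMP2 and GDF7, the ranges of neighbours in this order overlapped.

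Among the receptors, BMPR1A (ENSG00000107779.13; chromosome 10, 86756601 to 86932838, plus strand), a type I receptor for BMP2 and BMP4, was at 44.1, 45 and 46.6 CPM in the control libraries and 60.1, 62 and 57 CPM after OTUD1 siRNA. All 3 OTUD1 siRNA libraries were above all 3 control libraries, and the log2 fold change was 0.4 (SE 0.054). ACVR1, the type I receptor also known as ALK2 (ENSG00000115170.13; chromosome 2, 157736444 to 157875862, minus strand), was at 56.8, 58.8 and 53.1 CPM in the control libraries and 46, 44.7 and 47.2 CPM after OTUD1 siRNA. Here every OTUD1 siRNA library was below every control library (log2 fold change -0.29, SE 0.055). BMPR2, the type II receptor selective for BMPs (ENSG00000204217.13; chromosome 2, 202376936 to 202567751, plus strand), was at 53.8, 56.1 and 60.9 CPM and at 55.3, 53.7 and 51.2 CPM. Its groups overlapped, with a log2 fold change of -0.09 (SE 0.055) that was 0.04 with library totals.

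The other 4 receptors were less abundant per length. In the control libraries ACVR1 stood at 14.1 ± 0.714 CPM per kb, BMPR2 at 4.78 ± 0.306, BMPR1A at 3.96 ± 0.112, BMPR1B at 0.968 ± 0.168, ACVR2A at 0.882 ± 0.0877, ACVR2B at 0.629 ± 0.0833 and ACVRL1 at 0.352 ± 0.0468 (SD, n = 3). Only the ranges of BMPR1B and ACVR2A overlapped among neighbours in this order. The lead of ACVR1 rests on the lengths used. In CPM, ACVR1 (56.2 ± 2.85) overlapped BMPR2 (56.9 ± 3.65) in the control libraries. After OTUD1 siRNA, ACVR1 (46 ± 1.22 CPM) was below BMPR1A (59.7 ± 2.51) and BMPR2 (53.4 ± 2.07). After OTUD1 siRNA, BMPR1A (4.99 to 5.43 CPM per kb) lay above BMPR2 (4.3 to 4.65), the reverse of the control libraries (3.86 to 4.08 and 4.52 to 5.12). Within each library, BMPR1A was 0.268 to 0.307 times the length-scaled level of ACVR1 in the control group and 0.423 to 0.484 times after OTUD1 siRNA. ACVR2A, a type II receptor shared with activins, was the 1 of the 4 that was called, at 5.88, 6.61 and 5.43 CPM against 5.15, 4.37 and 4.17 (log2 fold change -0.38, SE 0.15; adjusted p by edgeR = 0.0278). ACVR2A lost its call without control replicate 2 (-0.3), and without replicate 2 (-0.35) or 3 (-0.33) of OTUD1 siRNA, with library totals (-0.26) and with DESeq2 (-0.38). The log2 fold changes of BMPR1B, ACVRL1 and ACVR2B were -0.11 (SE 0.15), -0.21 (SE 0.29) and 0.1 (SE 0.12), and all 3 crossed 0 under an alternative.

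**Figure D2:**
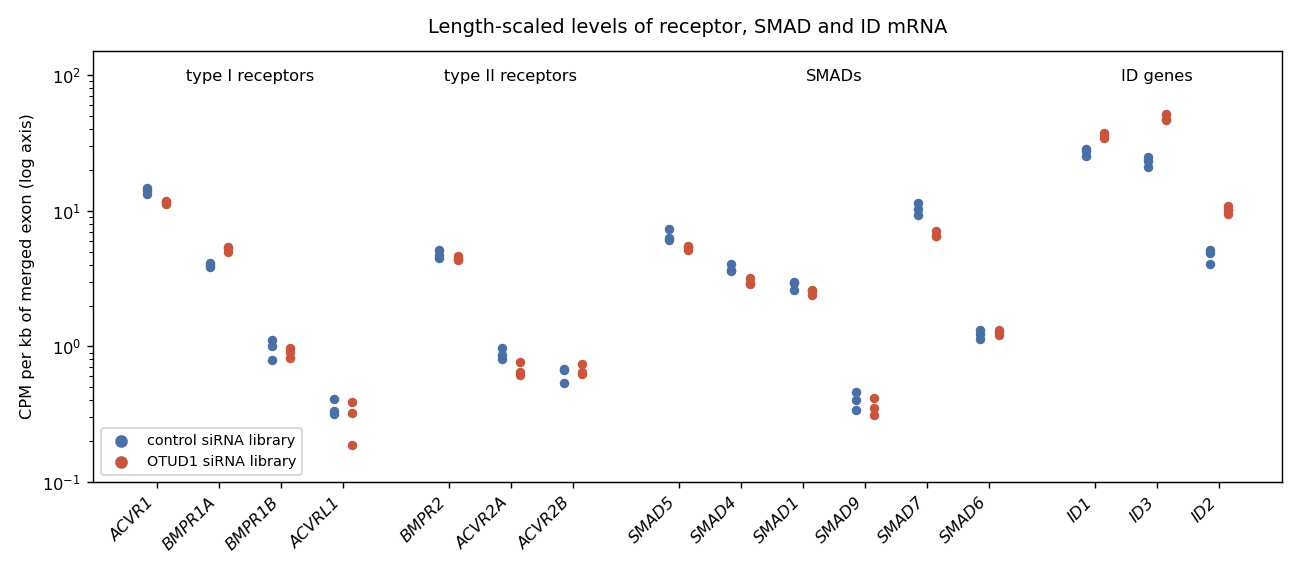
CPM per kilobase of merged exon, on a log axis, for type I receptors, type II receptors, SMADs and ID genes, with 1 point per library, blue for control siRNA and red for OTUD1 siRNA. ACVR1 is the highest of the 7 receptors in both groups, BMPR1A passes BMPR2 after OTUD1 siRNA, and ID3 passes ID1. The lead of ACVR1 and the pass of ID3 over ID1 hold on this length scale only. In CPM, ID3 is above ID1 in both groups. ACVR1 overlaps BMPR2 in CPM in the control libraries and lies below BMPR1A and BMPR2 after OTUD1 siRNA.

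SMAD5 (ENSG00000113658.17; chromosome 5, 136132845 to 136188747, plus strand), which carries the BMP signal from the receptors to the nucleus, was at 56.9, 66.1 and 55.1 CPM in the control libraries and 50, 49.1 and 46.4 CPM after OTUD1 siRNA. The groups did not overlap, and the log2 fold change was -0.29 (SE 0.061). SMAD1 (ENSG00000170365.9; chromosome 4, 145481194 to 145558079, plus strand), which has the same role, was at 18.2, 15.9 and 17.8 CPM and at 15.8, 14.6 and 15.5 CPM. Control replicate 2 lay just above the highest OTUD1 siRNA library, and the log2 fold change was -0.18 (SE 0.089). Without control replicate 2 the SMAD1 value was -0.23. Per kilobase, SMAD5 exceeded SMAD1 by 2.07 to 2.79 times in the control libraries and 2.01 to 2.26 times after OTUD1 siRNA.

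Of the SMADs outside the 10 genes, SMAD4, the shared partner of all receptor-activated SMADs, fell from 49.5 ± 2.98 to 39.5 ± 2.27 CPM (log2 fold change -0.32, SE 0.06; adjusted p by edgeR = 3.62e-05). SMAD9, the third BMP-activated SMAD, was at 2.29 ± 0.351 and 2.06 ± 0.306 CPM (-0.15, SE 0.24) and was not called. The inhibitory SMADs are themselves induced by BMP and transforming growth factor beta signals and block them in feedback. SMAD7 fell from 57.7, 51.5 and 47.1 CPM to 35.8, 32.5 and 32.9 CPM (-0.62, SE 0.067; adjusted p by edgeR = 3.47e-09), and every OTUD1 siRNA library was below every control library. SMAD6, the inhibitor more selective for BMP signals, was at 10.5, 9.69 and 11.4 CPM and at 11.2, 10.4 and 10.9 CPM. The SMAD6 groups overlapped, with a log2 fold change of 0.05 (SE 0.11). In the control libraries the length-scaled order was SMAD7 (10.3 ± 1.06 CPM per kb), SMAD5 (6.57 ± 0.657), SMAD4 (3.77 ± 0.227), SMAD1 (2.85 ± 0.208), SMAD6 (1.23 ± 0.099) and SMAD9 (0.4 ± 0.0613), with no overlap between neighbours. In CPM, SMAD7 (52.1 ± 5.34) overlapped SMAD5 (59.4 ± 5.94) and SMAD4 in these libraries, so the lead of SMAD7 rests on the lengths used.

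ID3 (ENSG00000117318.8; chromosome 1, 23557918 to 23559794, minus strand) was at 41.9, 38 and 44.4 CPM in the control libraries and 85.1, 83.4 and 93 CPM after OTUD1 siRNA. The lowest OTUD1 siRNA library was well above the highest control library, and the log2 fold change was 1.07 (SE 0.057). ID2 (ENSG00000115738.9; chromosome 2, 8678845 to 8684453, plus strand) was at 11.4, 10.7 and 8.93 CPM and at 23.8, 20.7 and 22.5 CPM, again without overlap (log2 fold change 1.11, SE 0.098). ID1 (ENSG00000125968.8; chromosome 20, 31605283 to 31606515, plus strand) was at 31.3, 34.9 and 33.9 CPM and at 42.6, 46 and 44.7 CPM, a smaller shift that also left no overlap (0.41, SE 0.061). The summed level of the 3 genes was 83.6 to 87.2 CPM in the control libraries and 150 to 160 CPM after OTUD1 siRNA. ID4, the fourth gene of the family, had 0 counts in the control group and 2 after OTUD1 siRNA, which is below the floor of 3 counts. Among all genes tested, 4.31% had a log2 fold change at or above that of ID2, 4.76% at or above that of ID3 and 20.9% at or above that of ID1. Since the 3 genes were chosen on this contrast, these shares only describe the sizes of the changes.

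The make-up of the ID family shifted with its level. Per kilobase, ID1 led in the control libraries (25.4 to 28.3 CPM per kb), above ID3 (21.1 to 24.7) and ID2 (4.05 to 5.17). After OTUD1 siRNA, ID3 led (46.4 to 51.8 CPM per kb), above ID1 (34.5 to 37.3) and ID2 (9.39 to 10.8). In CPM, ID3 was above ID1 in every library of both groups, so the order in the control libraries rests on the length used. The merged exons of ID1, 1233 bases, cover its whole gene span. The change in the ratio of ID3 to ID1 between the groups does not depend on length. Within a library, the ratio of ID3 to ID1 was 0.747 to 0.919 in the control group and 1.24 to 1.43 after OTUD1 siRNA, and that of ID2 to ID1 was 0.148 to 0.204 and 0.252 to 0.313. An antisense gene, ID2-AS1, overlaps exons of ID2 on the opposite strand. ID2-AS1 had 18 counts in the control group and 72 after OTUD1 siRNA, 3.41-fold more at equal depth with a counting interval of 2.01 to 6.08, and rose in the fit (log2 fold change 1.75, SE 0.41; adjusted p by edgeR = 0.000575). ID2-AS1 passed the filter on low counts only through the OTUD1 siRNA libraries, where it is high, so nothing is read from this p-value. Over all libraries ID2 had 1873 counts and ID2-AS1 had 90. The sources used here do not say whether the counting used strand, so reads of this pair may be mixed. ID2-AS1 reaches only to base 8681863 of chromosome 2, before the RefSeq start of ID2. Mixing could therefore concern only ID2 exons upstream of that start. The antisense genes of SMAD1 and SMAD5 had 0 counts and 1 count in all, and the BMPR1A pseudogenes BMPR1AP1 and BMPR1AP2 had 6 counts each, beside 5912 for BMPR1A.

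Because the 3 ID genes moved the same way, the 250 bases before the RefSeq start of each are shown (GRCh38.p14, 5′ to 3′ on the gene's strand). Capitals mark matches on either strand to 4 short strings. The first is GGCGCC, a core of the BMP response element and its own reverse complement. The SMAD-binding element core was searched as GTCTG and, for the other strand, as CAGAC. The CCAAT box was searched as CCAAT and ATTGG. The TATA box core was searched as TATAA and TTATA, which can overlap.
ID1 (chr20:31605039-31605288, plus strand): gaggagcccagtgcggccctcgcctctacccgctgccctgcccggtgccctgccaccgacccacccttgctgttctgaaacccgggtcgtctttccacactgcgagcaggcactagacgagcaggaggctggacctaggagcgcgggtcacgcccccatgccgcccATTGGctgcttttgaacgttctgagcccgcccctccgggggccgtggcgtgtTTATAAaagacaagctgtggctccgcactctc
ID2 (chr2:8681806-8682055, plus strand): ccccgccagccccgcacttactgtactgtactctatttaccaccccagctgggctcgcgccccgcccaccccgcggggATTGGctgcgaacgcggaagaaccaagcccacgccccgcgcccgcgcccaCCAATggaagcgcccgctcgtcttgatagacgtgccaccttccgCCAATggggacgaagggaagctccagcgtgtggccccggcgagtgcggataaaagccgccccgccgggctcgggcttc
ID3 (chr1:23559502-23559751, minus strand): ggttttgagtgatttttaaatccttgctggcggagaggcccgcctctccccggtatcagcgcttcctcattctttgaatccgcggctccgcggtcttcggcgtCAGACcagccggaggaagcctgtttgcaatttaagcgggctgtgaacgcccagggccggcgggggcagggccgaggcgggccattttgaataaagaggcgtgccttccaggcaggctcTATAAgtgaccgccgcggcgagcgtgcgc

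The ID1 window held CCAAT on the other strand, 84 to 80 bases before the start, and TATAA 31 to 27 bases before it, where a TTATA match overlaps it. The ID2 window held 3 CCAAT matches, at 172 to 168, 122 to 118 and 78 to 74 bases before the start, and no TATAA. The ID3 window held the SMAD core as CAGAC 147 to 143 bases before the start, and TATAA 29 to 25 bases before it. GGCGCC was in none of these 3 windows, and bases further upstream were not searched. Of 35116 RefSeq promoter windows of the same length, 16.4% held GGCGCC, 38% held GTCTG, 32% held CCAAT and 18.9% held TATAA, on either strand, so each of these short strings is common. The GC content was 66%, 69.2% and 62% for ID1, ID2 and ID3, against a median of 58% for all windows. The GENCODE 29 models of ID2 and ID3 begin further upstream, so these windows lie inside them. Of the other genes, BMP4, BMPR2 and ACVR1 held GGCGCC in 1 window each and SMAD1 in 2 of its 5 windows, while the windows of BMPR1A and SMAD5 held none; BMP2 was not searched. A match is a string of letters in this window and says nothing of whether a factor binds there.

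A 7-base string, CAAACAA, and the overlapping AAACAAA, had been singled out in an earlier look at these same counts, and occur in the 3′ UTRs of some of the 10 genes. CAAACAA was found in BMP2, with 2 overlapping copies starting at bases 62 and 66 of a 3′ UTR of 1191 bases, and in BMPR1A, with 3 copies in 9119 bases. BMP2 was the most lowered of the 10 genes, and BMPR1A was higher. BMPR2, with a 3′ UTR of 7805 bases, and SMAD5, with 5254, had no CAAACAA but 2 and 4 copies of AAACAAA, and ACVR1 and ID1 had 1 copy of AAACAAA each. BMP4, SMAD1, ID2 and ID3, with 3′ UTRs of 145 to 776 bases, had neither. Among tested genes with 3′ UTRs of at least 1000 but under 5000 bases, 19.2% held CAAACAA, and among those of 5000 bases or more 51.5% did. AAACAAA was more common, in 42.3% and 85% of these genes. With 3′ UTRs of at least 50 but under 1000 bases, as for ID1, 9.53% held AAACAAA. Since both strings were singled out on these same counts, nothing is read from their presence in the 10 genes. The sites, with the 7 bases in capitals, are written as DNA, 5′ to 3′.
BMP2, base 62: aaagaaaaaaaCAAACAAacaaaaaaaccc
BMPR1A, base 1544: tttattctgagCAAACAAttcatgagtaca
BMPR1A, base 2808: tctcaaataaaCAAACAAataaataacaaa
BMPR1A, base 3075: aaatataaaagCAAACAAcccaaactacct

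The rest of the pathway was followed through 64 further genes in 8 roles, of which 55 had counts and 41 could be tested. Of the 41, 20 fell (48.8%, beside 31.1% of all genes tested) and 5 rose (12.2%, beside 29.3%). Their median log2 fold change was -0.15, beside 0.0056 for all genes. The list was made with earlier results of these data known, so these shares are a description, and whether the pathway differs from all genes was not tested. Most of the decreases were in 3 roles that also held most of the genes tested. These were extracellular antagonists and modulators (7 of 12 tested), co-receptors (3 of 4) and intracellular inhibitors and nuclear regulators (6 of 10). The calls include SOSTDC1 (higher) and BAMBI (lower), which passed the filter on low counts only through the group where each is high. Without control replicate 1, 3 rather than 5 rose. With library totals 14 were called lower and 5 higher, while 6189 of all genes were called higher and 3456 lower.

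Of 12 antagonists and extracellular modulators tested, 7 fell and 2 rose. After quantile normalization 6 of the 12 were called, against 9 with edgeR. The 19 listed summed to 1350 to 1360 CPM in the control libraries and 902 to 914 CPM after OTUD1 siRNA. CRIM1 alone made up 695 ± 14.9 and 351 ± 6.19 CPM of these sums (SD, n = 3), and so most of their difference. CRIM1, a transmembrane protein that binds BMPs and retains them at the cell, fell from 679, 698 and 708 CPM to 344, 353 and 356 CPM (log2 fold change -0.99, SE 0.03; adjusted p by edgeR = 1.63e-21). CHRDL1, a secreted chordin-like antagonist of BMP4, fell from 36.1 ± 2.08 to 16.4 ± 1.51 CPM (-1.14, SE 0.077), and the follistatin-like gene FSTL1 from 153 ± 6.61 to 122 ± 1.08 CPM (-0.34, SE 0.039). The groups of these 3 genes did not overlap. BMPER, which binds BMPs outside the cell, rose from 1.25, 1.6 and 1.75 CPM to 3.56, 2.78 and 3.28 CPM (1.06, SE 0.23; adjusted p by edgeR = 0.000237). SOSTDC1, a secreted BMP antagonist, had 15 counts in the control group and 46 after OTUD1 siRNA, 2.62-fold more with a counting interval of 1.44 to 5.05. SOSTDC1 passed the filter on low counts only through the OTUD1 siRNA libraries, where it is high, so nothing is read from its call. The SOSTDC1 call (edgeR adjusted p = 0.0125) was lost without control replicate 1 (log2 fold change 1.16), without OTUD1 siRNA replicate 2 (1.25) and after quantile normalization (0.96). Noggin (NOG), the best known BMP antagonist, was at 6.44 ± 0.438 and 6.45 ± 0.651 CPM.

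Co-receptors help ligands reach the kinase receptors. Of 4 tested, 3 fell and 1 rose. Endoglin (ENG) fell from 12.9 ± 0.468 to 8.31 ± 0.184 CPM (log2 fold change -0.64, SE 0.1), betaglycan (TGFBR3) from 14.1 ± 1.07 to 9.32 ± 1.05 CPM (-0.6, SE 0.11) and neogenin (NEO1) from 43.6 ± 4.29 to 36.2 ± 2.94 CPM (-0.27, SE 0.07). All 3 OTUD1 siRNA libraries were below all control libraries for each of them, although the NEO1 call was lost with library totals (-0.14). RGMB, a membrane-anchored BMP co-receptor, went from 28 ± 2.2 to 31.3 ± 0.519 CPM (0.16, SE 0.069; adjusted p by edgeR = 0.0459). The RGMB call was lost without control replicate 1 (0.14) or 2 (0.11), without OTUD1 siRNA replicate 1 (0.17), 2 (0.15) or 3 (0.15), with DESeq2 (0.17) and without a filter (0.15).

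Of 10 tested genes for intracellular inhibitors and nuclear regulators, 6 fell and 1 rose. SMURF1, a ubiquitin ligase that marks SMAD1 and SMAD5 for degradation, fell from 112 ± 4.38 to 70.6 ± 1.51 CPM (log2 fold change -0.66, SE 0.044; adjusted p by edgeR = 1.67e-13). FKBP1A, which binds type I receptors and keeps them inactive without ligand, fell from 647 ± 5.8 to 502 ± 9.82 CPM (-0.36, SE 0.028). The SMAD co-repressor genes SKIL and SKI went in opposite directions, SKIL from 30.7 ± 2.48 to 18.1 ± 1.38 CPM (-0.77, SE 0.08) and SKI from 30.2 ± 2.45 to 42 ± 2.54 CPM (0.47, SE 0.067). For each of these 4 genes the groups did not overlap.

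A list of 8 further target genes left out SMAD6 and SMAD7, which are also induced by BMP signals but were listed with the inhibitors, where SMAD7 fell. MSX2, DLX5 and HAMP had no count. Of the 8 genes, 3 could be tested and 0 were called by edgeR, with 0 at an unadjusted p under 0.05 and 0 calls by DESeq2 or either limma fit. ATOH8, a BMP-induced transcription factor gene, was at 5.07, 5.4 and 4.67 CPM and at 5.01, 5.86 and 5.67 CPM (log2 fold change 0.12, SE 0.15). The homeobox gene MSX1 was at 19.3, 18 and 18.8 CPM and at 19.2, 18.2 and 17.2 CPM (-0.04, SE 0.083), and RUNX2, of bone formation, had a log2 fold change of 0.04 (SE 0.12). The groups of all 3 overlapped. The summed level of the 8 genes was 31.7 to 33.1 CPM in the control libraries and 31.8 to 33.3 CPM after OTUD1 siRNA. Whether the ID genes differ from the other targets was not tested, since they were chosen on this contrast.

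The E proteins that ID proteins bind went both ways. TCF12 fell from 77.1 ± 5.57 to 52.8 ± 1.84 CPM (log2 fold change -0.55, SE 0.054; adjusted p by edgeR = 6.58e-10). TCF4 fell from 2.88, 2.86 and 2.86 CPM to 0.684, 1.44 and 1.06 CPM (-1.44, SE 0.27; adjusted p by edgeR = 4.18e-05). TCF3, which encodes E12 and E47, rose from 76.2 ± 1.68 to 95.2 ± 5.44 CPM (0.32, SE 0.047; adjusted p by edgeR = 9.84e-07). No group of the 3 genes overlapped, and their summed level was 150 to 160 CPM in the control libraries and 146 to 153 CPM after OTUD1 siRNA.

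**Figure D3:**
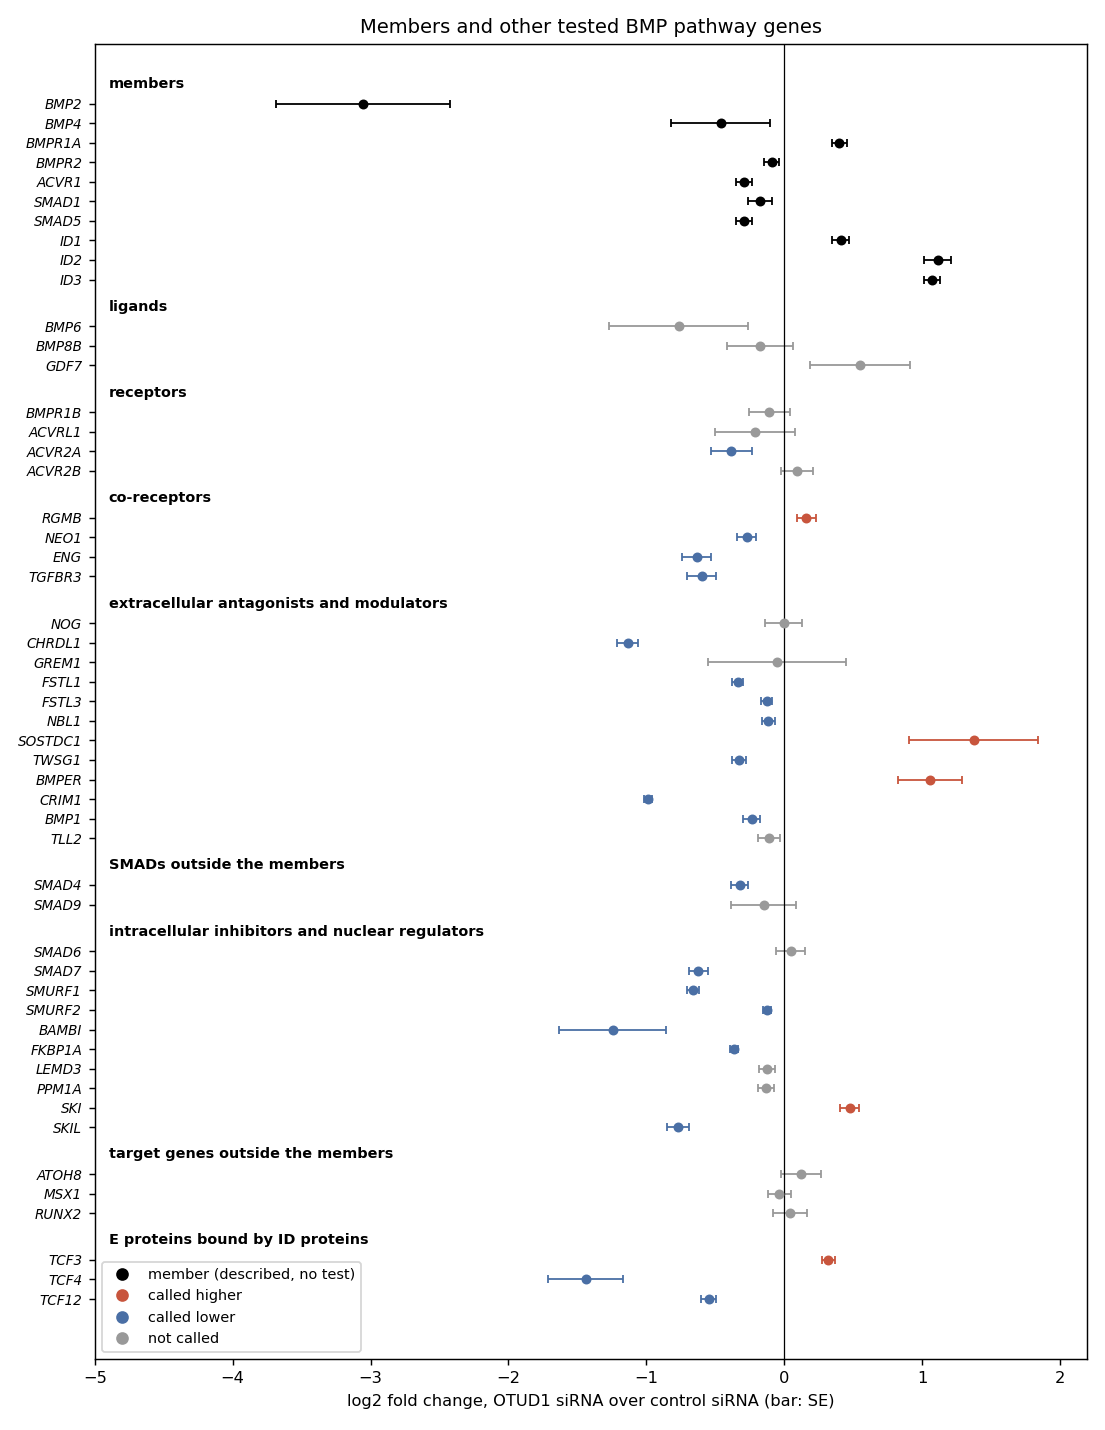
Log2 fold change of OTUD1 siRNA over control siRNA, with its SE as a bar, for the 10 genes (black, described without a test) and the 41 other tested pathway genes by role; red is called higher, blue called lower and grey not called at an adjusted p under 0.05. Blue points, 20 in all, outnumber the 5 red ones, while ID2 and ID3 lie above 1 and ATOH8, MSX1 and RUNX2 lie near 0.

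The fold changes of the 10 genes were recomputed under 15 alternatives, of which 14 could give a value for BMP2 and BMP4. Over these, ID2 ranged from 1.02 to 1.24 on the log2 scale, ID3 from 1.01 to 1.2, ID1 from 0.365 to 0.54 and BMPR1A from 0.373 to 0.53. ACVR1 ranged from -0.329 to -0.162, SMAD5 from -0.342 to -0.162 and BMP2 from -3.65 to -2.23. With library totals, each value lay higher by about the shift of all genes. Relative to the median of all genes it was then 1.07 for ID3, 0.405 for ID1, -0.296 for ACVR1 and -0.096 for BMPR2.

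**Figure D4:**
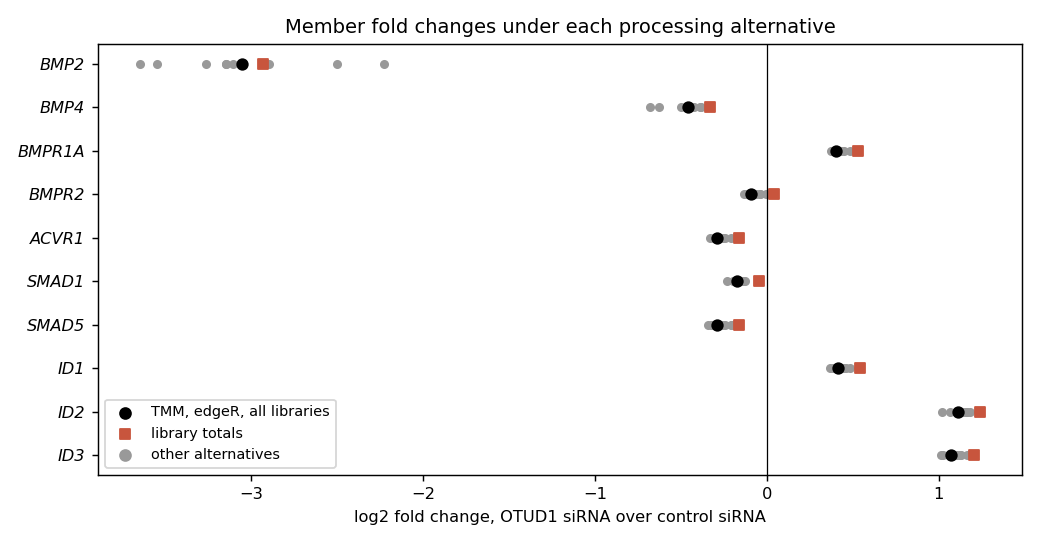
Log2 fold change of OTUD1 siRNA over control siRNA for each of the 10 genes under TMM scaling and edgeR (black), with library totals (red square) and under the other alternatives (grey). BMPR2 is the gene of the 10 whose value crosses 0, and BMP2, with the fewest counts, has the widest range.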

How the data were processed

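RNA was sequenced from 6 ACHN libraries, 3 per group, grouped by their titles. Trizol was used for RNA extraction and a directional NEBNext Ultra kit for the libraries, per the labels' protocols; the submitters' processing notes name the build hg38. An aligner, counting tool, annotation and strand setting: not given in the sources used here. The deposited table is named for FPKM, but its values are whole-number counts with totals that differ between libraries and were treated as raw counts. It has 58735 rows, of which 99.95% matched a GENCODE 29 symbol.

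The main analysis used edgeR 4.0.16 (R 4.3.3): filterByExpr (10 counts at the median library size, 15 in all), TMM, glmQLFit and glmQLFTest, two-sided, Benjamini-Hochberg adjustment over the 15244 genes tested, threshold 0.05. The method was tested on simulated data. The SE is the fold change divided by the square root of its F. A count of 3 corresponds to 0.137 to 0.188 CPM. Where a group had 30 counts or fewer, folds come from summed counts with exact binomial 95% intervals. No library was a copy: within a group the chi-square averaged 2.05 to 3.8 over genes. Alternatives used limma 3.58.1 and DESeq2 1.42.0. Exon lengths and 3′ UTRs (the longest of the annotated principal transcripts) come from GENCODE 29, and promoters from RefSeq (GRCh38.p14), where 9 of the 10 genes matched; sequences were searched in Python 3.11.15.

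The 10 genes, the 64 further pathway genes and the markers were chosen with earlier results of these data known. The text names the 10 genes, OTUD1, up to 3 called genes in each direction and role with the smallest adjusted p, and families of ligands, receptors, SMADs and ID genes in full. ID2-AS1, NOG, BAMBI and the markers, and the targets ATOH8, MSX1 and RUNX2, were named after their values had been seen.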

Additional observations from a re-analysis of the deposited data

How the results depend on the processing

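Among the recomputed log2 fold changes of the 10 genes, which are descriptions, BMPR2 changed sign (0.0384 with library totals). The other reversals were of genes that were not called. With library totals BMPR1B was 0.0214 and MSX1 0.0932, after quantile normalization ATOH8 was -0.0069 and RUNX2 -0.0193, and with a mean of at least 5 CPM MSX1 was 0.0119. Over the 6 fits that leave out 1 library, values ran from -0.236 to 0.0156 for BMPR1B, -0.444 to 0.0225 for ACVRL1, -0.0098 to 0.161 for ACVR2B, -0.0102 to 0.108 for SMAD6, -0.0767 to 0.0017 for MSX1 and -0.0169 to 0.16 for RUNX2. The libraries whose absence turned the sign were control replicate 1 for ACVR2B and RUNX2, control replicate 2 for BMPR1B, SMAD6 and RUNX2, and OTUD1 siRNA replicate 3 for ACVRL1 and MSX1. The number of further pathway genes called higher was 5, but 3 with a mean of at least 5 CPM, where fewer genes are tested, and 3 to 5 when 1 library was left out. Those called lower numbered 20, and 14 with library totals. The causes of the other changes were not tested.

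Same-numbered libraries did not deviate together (correlations -0.0229, 0.0178 and -0.0182), and not every library correlated best with its own number. With the replicate block 4484 genes were called higher and 4791 lower, with 5 and 20 of the further pathway genes, and no other call in the text was changed. BMP2 and BMP4 rest on 5 to 52 counts per group, which limits their precision.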
